A study of Oryza sativa with 6 samples.

Results

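GRAS proteins are plant transcription regulators named after their founding members GAI, RGA and SCARECROW. The genes described here are the GRAS genes of rice root tips other than SHORT-ROOT, SCARECROW and the DELLA protein SLR1. They are the genes that the deposited table assigns to the transcription factor family GRAS, less the 5 loci of SHR1, SHR2, SCR1, SCR2 and SLR1, which leaves 59 genes of 56962. The rule reads no measured value, although the set was proposed with earlier results of these data known. All 59 were found through the family column, and 0 carry a description that contains the family's name.

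The lad group is the mutant, which the labels also call sr1, and the J10 group is the wild type. Each was sequenced in 3 libraries of total RNA from the last 0.5 cm of roots, taken from Oryza sativa seedlings kept at 25°C until 6 days after sprouting. The labels name no treatment, allele or mutated locus. They do not say whether the 3 samples of a genotype came from separate plants or pools, so p-values measure the spread between these samples, which may be technical. The series title places the mutant in the study of root cell division and of tracheary elements, the cells that form the water-conducting vessels.

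Many GRAS proteins act as co-regulators that bind partner transcription factors through their C-terminal GRAS domain. In plants the family serves gibberellin and brassinosteroid signalling, the patterning and upkeep of root and shoot meristems, the outgrowth of side branches, and the response to symbiotic fungi and microbial elicitors. The table identifies genes by locus, and its descriptions were searched only for the family's name. The gene names that follow are general knowledge of rice loci, given as background and not checked against those descriptions. Loci without a well-known name are given by identifier, with no role.

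Library totals were 16405022 to 18816338 counts in lad and 19030866 to 20693114 in J10. A principal component analysis of log2 CPM, the count scaled to library size, put 82.4% of the variance on component 1. As a check of the tissue, 5 of 5 root marker genes had counts, with summed levels of 1358 to 1639 CPM in lad and 1546 to 2350 CPM in J10. The summed level of 4 leaf genes, for the Rubisco small subunit and light-harvesting proteins, was 3.8 to 5.41 CPM in lad and 2.76 to 3.39 CPM in J10. These leaf genes were not alike. The Rubisco gene LOC_Os12g17600 was at 0 in all libraries, and the Rubisco gene LOC_Os12g19470 had 13, 20 and 9 counts in lad and 3, 0 and 3 in J10. The light-harvesting gene LOC_Os01g41710 had 29, 15 and 52 counts in lad and 0, 0 and 4 in J10. Its log2 change was 4.49 (adjusted p = 0.00212, edgeR quasi-likelihood test). That of the light-harvesting gene LOC_Os09g17740 was -0.38 (0.392, same test). The shoot meristem gene OSH1 had 1 count in a lad library and 0 in J10. The 5 root markers moved in both directions, with 2 higher, 2 lower and 1 that did not pass. The silicon transporter gene Lsi1 rose by 1.24 on the log2 scale (adjusted p = 0.000884) and the meristem gene PLT1 by 0.59 (0.0207), the root gene RCc3 changed by -0.81 (0.00678), and the meristem gene PLT2 by 0.19 (0.34), all in the edgeR quasi-likelihood test. QHB, a marker of the quiescent centre, fell to 5.13 ± 1.69 CPM in lad, against 13.3 ± 1.69 CPM in J10 (SD, n = 3 each, as for every mean that follows), with an adjusted p of 0.00097 (edgeR quasi-likelihood test). In such whole tips, fewer cells of a type and less RNA per cell cannot be told apart, and the part of cell composition in the values below was not tested.

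Of the 59 members, 38 had enough counts to be tested, 7 had a few counts and 14 had none in any library. In lad 10 of the 38 rose, 2 fell and 26 did not pass (edgeR quasi-likelihood test, adjusted p below 0.05 by Benjamini-Hochberg over all genes tested). In all, 31.6% of the tested members were called, beside 45.2% of all 22624 tested genes. Higher calls made up 26.3% of the tested members and 24.9% of all tested genes, so their share is near the background. Lower calls made up 5.26% of the tested members and 20.3% of all tested genes. That lower count turned on the scaling of the libraries, with 4 members lower under upper-quartile factors and 0 under library totals. The calls over all tested genes shifted in the same direction. Higher calls made up 55.2% of the 10229 calls in the main fit. They were 49.3% of 10511 under upper-quartile factors and 63.1% of 9863 under library totals, and the rest were lower. The median log2 change, lad over J10, was 0.20 over the tested members and 0.02 over all tested genes. The median size of the log2 change, without its sign, was 0.38 over members and 0.45 over all tested genes.

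The 3 lad values lay entirely above the J10 values for 14 tested members, beside 30.2% of all tested genes. They lay entirely below for 4, beside 26.6% of all tested genes, and the genotypes overlapped for 20. Members without overlap were thus 47.4%, beside 56.8% of all tested genes. All 12 called members were among them, and 6 more were apart without passing the test. An increase of at least 2-fold was called for 7 members (18.4%, beside 15.2% of all tested genes). Of these 7, LOC_Os04g35250, LOC_Os11g47870 and LOC_Os11g04570 entered the test through their lad counts, being under the expression filter in at least 1 J10 library. A decrease of at least 2-fold was called for 1 member (2.63%, beside 4.73% of all tested genes). The plot of levels by library shows each tested member.

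**Figure D1:**
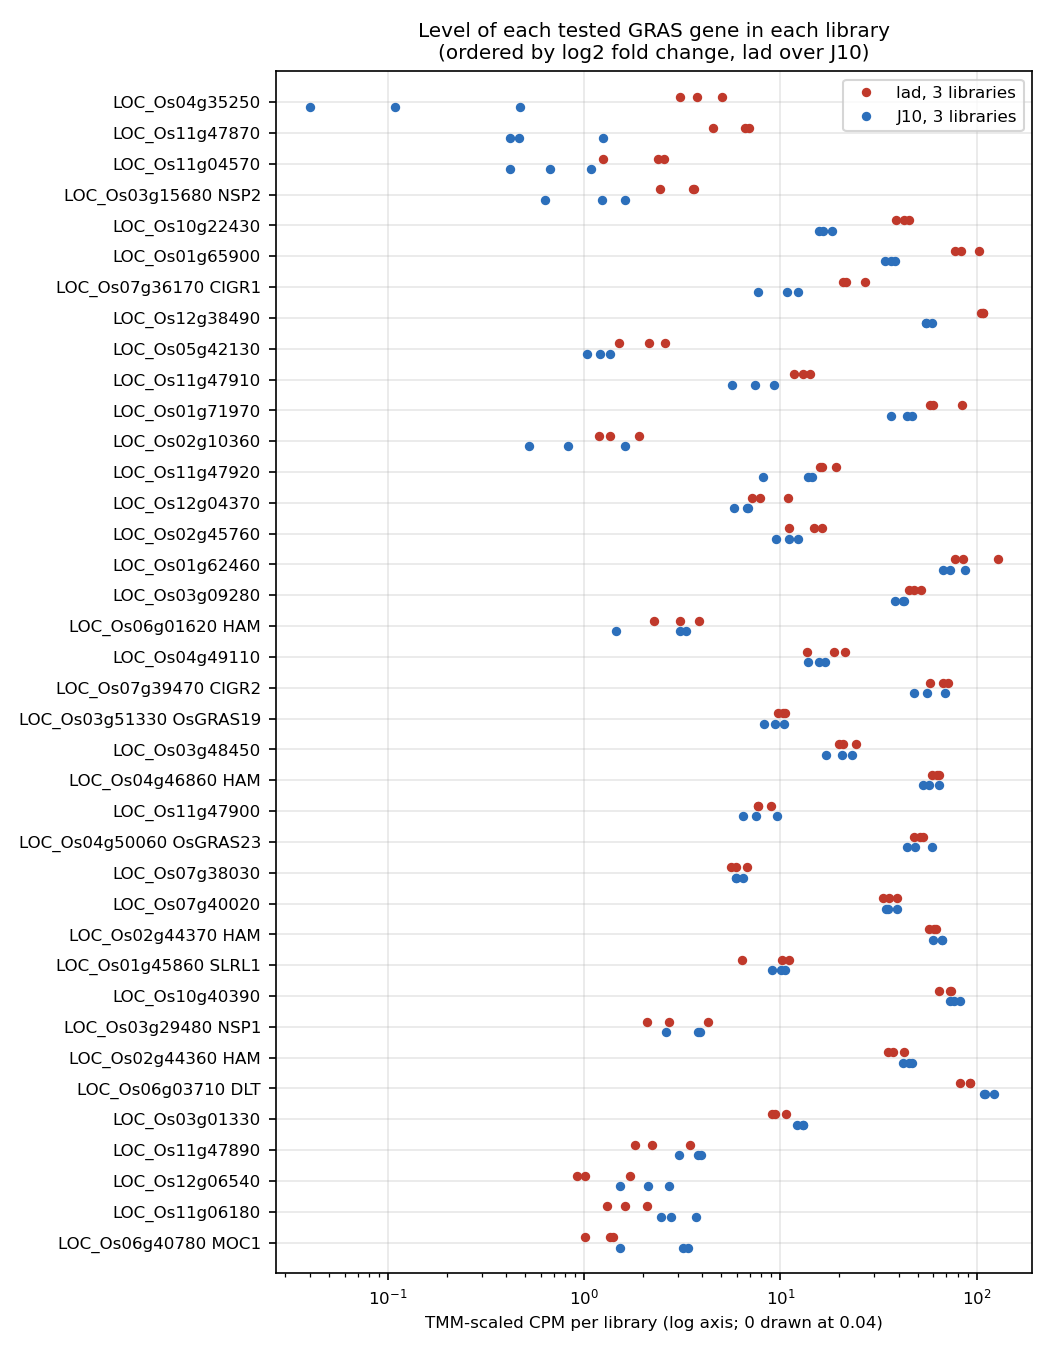
Level of each of the 38 tested GRAS genes in each library, in TMM-scaled CPM on a log axis, with lad points drawn above J10 points in each row and rows ordered by log2 fold change. In the top rows all 3 lad points lie to the right of the J10 points, in most middle rows the genotypes overlap, and MOC1 in the bottom row has its 3 lad points to the left.

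Among the 4 genes tied to gibberellin, CIGR1 rose, CIGR2 and SLRL1 did not pass, and SLRL2 was not tested. CIGR1 (LOC_Os07g36170, chromosome 7, 21614953 to 21620327; coordinates are those of the deposited table, on a genome build not given in the sources used here) encodes a protein induced by chitin elicitors and by gibberellin in cultured rice cells. It measured 21.7, 20.9 and 27.1 CPM in lad and 12.3, 7.69 and 10.8 CPM in J10. Every lad library was above every J10 library, and the log2 change was 1.18 ± 0.19 (SE; adjusted p = 0.00067, edgeR quasi-likelihood). CIGR2 (LOC_Os07g39470), found together with it in the same cells, stood higher in level, with 65.7 ± 6.9 CPM in lad and 57.5 ± 10.5 CPM in J10. Its groups overlapped, and the 95% interval of its log2 change ran from -0.12 to 0.51, below the interval of 0.75 to 1.60 for CIGR1.

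SLRL1 (LOC_Os01g45860) encodes a relative of SLR1 that lacks the DELLA motif through which gibberellin triggers breakdown, and it represses gibberellin responses. It had 9.24 ± 2.52 CPM in lad and 9.93 ± 0.743 CPM in J10 (log2 change -0.11, 95% interval -0.59 to 0.38). Its paralogue SLRL2 (LOC_Os05g49930) had 0 counts in all 6 libraries.

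Of the pair tied to brassinosteroid, a growth-promoting steroid hormone, DLT fell and OsGRAS19 did not pass. DLT (LOC_Os06g03710, chromosome 6, 1465499 to 1468600), named DWARF AND LOW-TILLERING for its mutant, promotes the brassinosteroid response. It measured 93, 82.6 and 92.6 CPM in lad and 122, 109 and 110 CPM in J10. The genotypes did not overlap, but the difference was small, with a log2 change of -0.35 ± 0.10 (adjusted p = 0.0186, edgeR quasi-likelihood). The call was lost without lad replicate 2 (adjusted p = 0.0636) and with library totals (adjusted p = 0.0813). OsGRAS19 (LOC_Os03g51330), a further regulator of that response, had 10.2 ± 0.406 CPM in lad and 9.33 ± 1.04 CPM in J10, and its groups overlapped.

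The HAM genes, for HAIRY MERISTEM, maintain meristems in other plants such as petunia and Arabidopsis, and their messages are cut under the guidance of the microRNA miR171. All 4 rice loci of this kind were tested and 0 passed, beside 31.6% of the tested members and 45.2% of all tested genes. So few loci cannot set them apart from that background. The members LOC_Os04g46860, LOC_Os02g44370 and LOC_Os02g44360 were among the more abundant GRAS messages. LOC_Os04g46860 had 59.5, 64.7 and 63 CPM in lad and 57.4, 64.1 and 53.3 CPM in J10. LOC_Os02g44370 had 57.2, 60.8 and 62.2 CPM in lad and 60, 66.4 and 66.4 CPM in J10. Both overlapped between genotypes, and their intervals (-0.14 to 0.33 and -0.32 to 0.12 on the log2 scale) stay within 0.33 of 0. LOC_Os02g44360, which lies next to LOC_Os02g44370 on chromosome 2, had 38.5 ± 3.59 CPM in lad and 44.8 ± 2.38 CPM in J10 (interval -0.46 to 0.03). LOC_Os06g01620 was low, at 3.06 ± 0.787 CPM in lad and 2.61 ± 1 CPM in J10, and its interval of -0.58 to 1.03 was wide.

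MOC1 (LOC_Os06g40780, chromosome 6, 24311420 to 24316382), for MONOCULM 1, is needed to form the axillary buds from which tillers grow. In these root tips it was near the low end of the tested members. It had 26, 17 and 26 counts in lad and 62, 29 and 63 counts in J10, or 1.41, 1.01 and 1.35 CPM in lad against 3.19, 1.52 and 3.4 CPM in J10. The groups lay apart by a narrow margin, since J10 replicate 2 was close to the lad values. The log2 change was -1.10 ± 0.39 (adjusted p = 0.0414, edgeR quasi-likelihood). Leaving out J10 replicate 2 kept the call, whereas leaving out any 1 of the other 5 libraries ended it (adjusted p from 0.0803 to 0.148), as did library totals (0.0664).

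Orthologues of regulators of root symbiosis in legumes differed among themselves. NSP2 (LOC_Os03g15680, chromosome 3, 8651497 to 8653224) and NSP1 (LOC_Os03g29480) are the counterparts of the nodulation signalling factors of Medicago truncatula, and in rice they are needed for strigolactone synthesis. NSP2 had 66, 41 and 70 counts in lad and 24, 12 and 30 counts in J10, which is 3.57, 2.44 and 3.63 CPM in lad and 1.23, 0.628 and 1.62 CPM in J10. The genotypes did not overlap, and NSP2 rose by 1.47 ± 0.39 on the log2 scale (adjusted p = 0.0115, edgeR quasi-likelihood). NSP1, at 3.02 ± 1.13 CPM in lad and 3.44 ± 0.713 CPM in J10, overlapped between genotypes (log2 change -0.18, interval -0.91 to 0.54). The counterpart of the mycorrhiza factor RAM1 (LOC_Os11g31100) was too low to test, with 16, 10 and 7 counts in lad and 9, 3 and 4 in J10.

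OsGRAS23 (LOC_Os04g50060), reported to raise drought tolerance in rice, was abundant and near equal in mean, with 48.1, 51.7 and 53.4 CPM in lad and 59.6, 44.4 and 48.3 CPM in J10. Its interval ran from -0.27 to 0.29 on the log2 scale. Over the 15 members listed here with a role or name, 13 were tested, of which 2 rose, 2 fell and 9 did not pass. Their median log2 change was 0.01. Over the 44 other members, 25 were tested, of which 8 rose, 0 fell and 17 missed the threshold, and their median log2 change was 0.37. Beside both counts stand the 24.9% of all tested genes called higher and the 20.3% called lower, and the difference between these sets of members was not tested. Under upper-quartile factors, LOC_Os03g01330 and LOC_Os11g06180 of the second set were lower too (adjusted p of 0.0323 and 0.0492, edgeR quasi-likelihood).

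**Figure D2:**
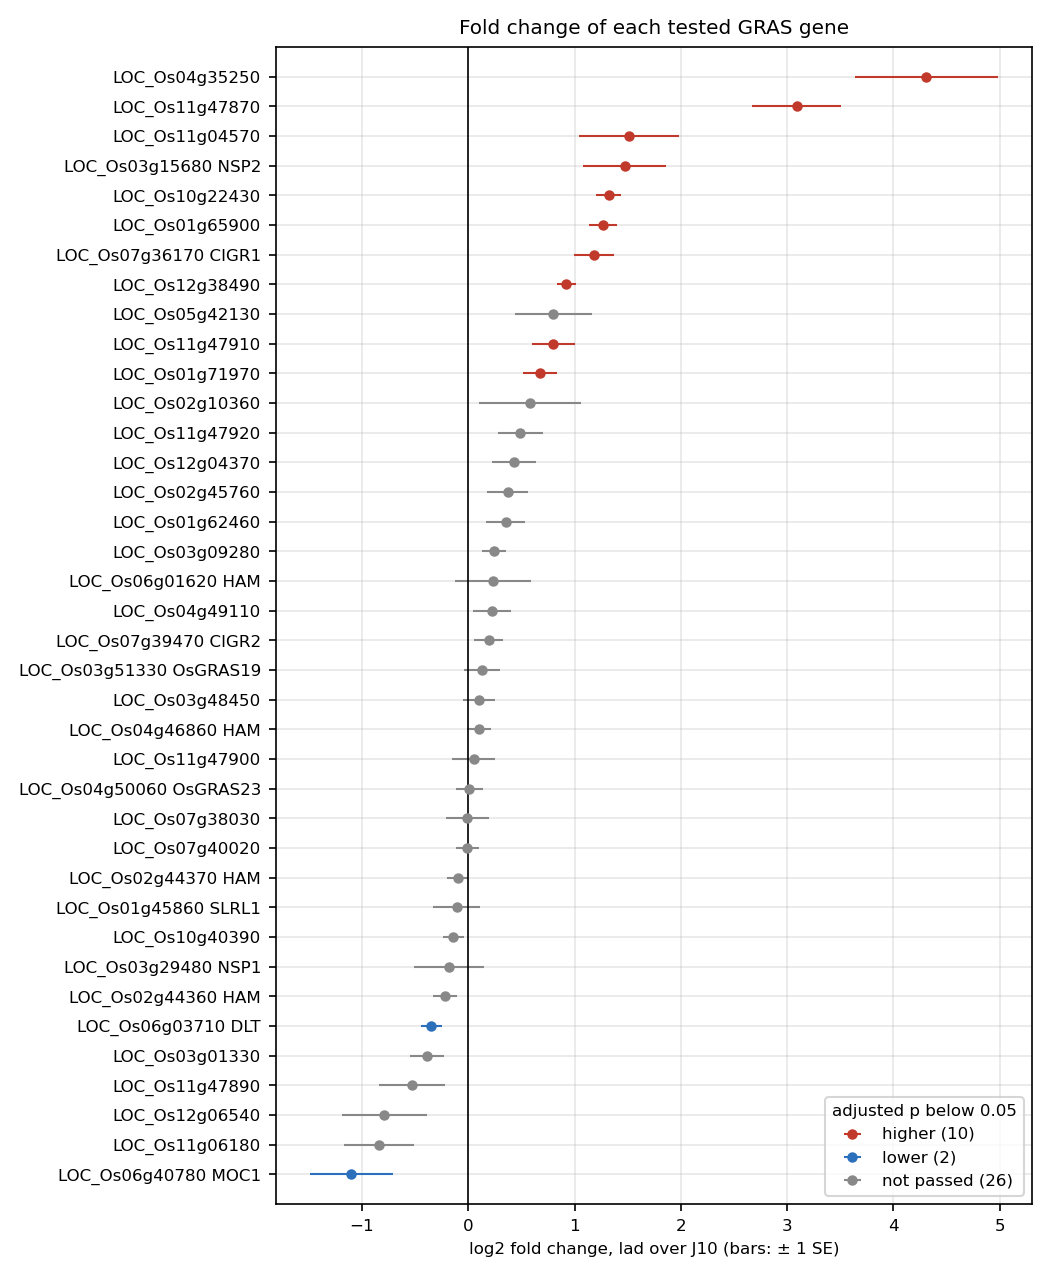
Log2 fold change, lad over J10, of the 38 tested GRAS genes with bars of 1 SE, coloured by whether the adjusted p was below 0.05 (10 higher, 2 lower, 26 not passed). The changes reach 4.31 for LOC_Os04g35250 at the top and -1.10 for MOC1 at the bottom, and most grey points lie within 0.5 of 0.

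Among loci given here without a role, LOC_Os04g35250 and LOC_Os11g47870 had the largest increases, and both were close to silent in J10. LOC_Os04g35250 (chromosome 4, 21424207 to 21425721) had 93, 63 and 59 counts in lad and 0, 9 and 2 counts in J10. That is 5.03, 3.75 and 3.06 CPM in lad against 0, 0.471 and 0.108 CPM in J10. All lad libraries were far above all J10 libraries, and the log2 change was 4.31 ± 0.67 (adjusted p = 0.00047, edgeR quasi-likelihood). Its size was loosely set, at 6.03 without J10 replicate 2, which held 9 of the 11 J10 counts, and 3.69 without J10 replicate 1.

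LOC_Os11g47870 (chromosome 11, 28870096 to 28872571) had 122, 76 and 134 counts in lad and 9, 8 and 23 counts in J10. Its levels were 6.6, 4.52 and 6.94 CPM in lad and 0.463, 0.419 and 1.24 CPM in J10, well apart, with J10 replicate 3 the highest of the wild type. The log2 change was 3.09 ± 0.42 (adjusted p = 0.000186, edgeR quasi-likelihood), and 3.72 without J10 replicate 3. Some members entered the test through their lad counts: LOC_Os04g35250 was under the value of the expression filter in every J10 library, and LOC_Os11g47870, LOC_Os11g04570 and LOC_Os02g10360 were under it in at least 1.

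LOC_Os11g47870 is the first of 5 GRAS genes that follow each other over 30.7 kb of chromosome 11, with 0 other genes of the table between them, and its increase was the largest of the run. The 95% interval of its log2 change, 2.17 to 4.01, lay above those of the other 4, of which the highest ended at 1.25. LOC_Os11g47910 rose to 12.9 ± 1.23 CPM in lad, against 7.45 ± 1.8 CPM in J10 (log2 change 0.80 ± 0.20, adjusted p = 0.009, edgeR quasi-likelihood). LOC_Os11g47920 had 17.1 ± 1.78 CPM in lad and 12.1 ± 3.51 CPM in J10, and LOC_Os11g47900 had 8.12 ± 0.726 CPM in lad and 7.84 ± 1.6 CPM in J10. LOC_Os11g47890 was the one with a lower mean in lad, at 2.49 ± 0.851 CPM, against 3.58 ± 0.488 CPM in J10. None of these 3 passed. LOC_Os11g47870 took 13.2, 10.4 and 14.8% of the counts of the 5 genes in lad and 1.34, 1.51 and 3.76% in J10, LOC_Os11g47910 took 28.4, 27.1 and 27.6% in lad and 26.9, 20.4 and 22.5% in J10, and LOC_Os11g47890 took 4.45, 7.97 and 3.86% in lad and 11, 14.2 and 9.15% in J10. These shares add to a fixed sum, so a rise of 1 gene lowers the others, and the CPM of LOC_Os11g47890 overlapped between genotypes. Reads could be split among neighbours that are alike in sequence, which was not tested.

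**Figure D3:**
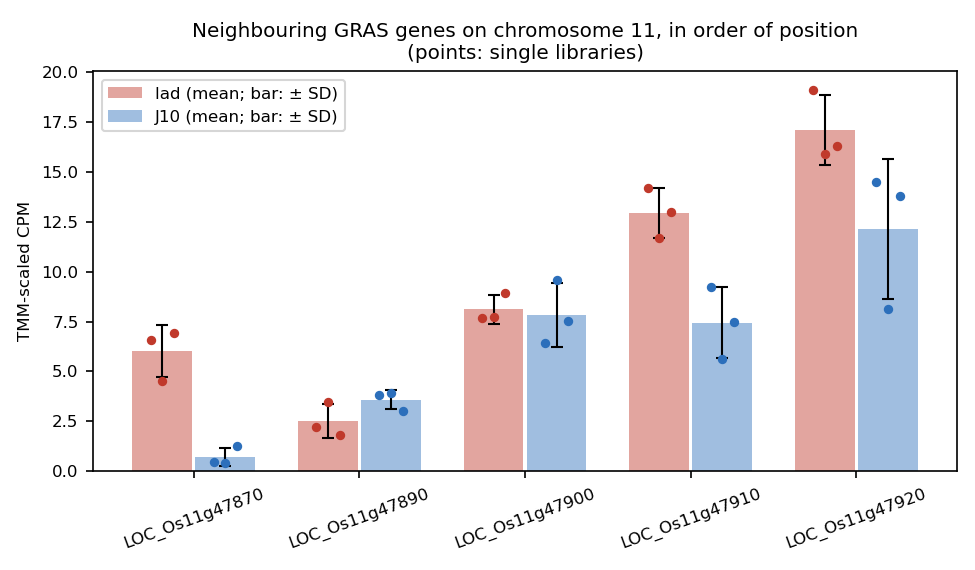
Level of the 5 neighbouring GRAS genes of chromosome 11 in TMM-scaled CPM, in order of position; bars are means of 3 libraries, with lad left of J10, whiskers are SD and points are single libraries. LOC_Os11g47870 has 6.02 CPM in lad and 0.708 CPM in J10, and LOC_Os11g47890 and LOC_Os11g47900 overlap between genotypes.

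The other calls among loci given without a role were mostly of abundant genes. LOC_Os10g22430 (chromosome 10, 11605114 to 11609036) measured 42.5, 38.7 and 45 CPM in lad and 18.3, 15.7 and 16.4 CPM in J10, a log2 change of 1.32 ± 0.12 (adjusted p = 1.23e-05, edgeR quasi-likelihood). LOC_Os01g65900 (chromosome 1, 38261836 to 38265509) measured 82.8, 77.4 and 103 CPM in lad and 38.2, 36.8 and 34.3 CPM in J10, a log2 change of 1.27 ± 0.13 (adjusted p = 2.26e-05). LOC_Os12g38490 (chromosome 12, 23634672 to 23637678) measured 108, 105 and 108 CPM in lad and 55, 59.6 and 55.4 CPM in J10, a log2 change of 0.92 ± 0.09 (adjusted p = 2.99e-05). In each of the 3 genes the genotypes lay far apart. The libraries of a genotype lay close together, except that lad replicate 3 of LOC_Os01g65900 stood above lad replicates 1 and 2. Without it the log2 change of that gene was 1.14. LOC_Os01g71970 (chromosome 1, 41711881 to 41713811) rose less, to 59.9, 57.7 and 84.7 CPM in lad, against 46.6, 36.7 and 44.2 CPM in J10 (log2 change 0.67 ± 0.16, adjusted p = 0.00616). Its lad replicate 3 stood above the other two.

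LOC_Os11g04570 (chromosome 11, 1933914 to 1939818) had 47, 21 and 46 counts in lad and 13, 8 and 20 counts in J10, or 2.06 ± 0.706 CPM in lad and 0.723 ± 0.334 CPM in J10. Its log2 change was 1.51 ± 0.47 (adjusted p = 0.0231, edgeR quasi-likelihood), and the call was lost without lad replicate 1 or 3 or J10 replicate 1 or 2 (adjusted p from 0.0512 to 0.0914). It is 1 of 8 members within the first 3.5 Mb of chromosomes 11 and 12, where the rice genome holds a recent duplication shared by these chromosomes. Counts of near-identical copies there are uncertain, since the counting could split or share their reads. Of these 8, 4 were tested. LOC_Os12g04370 had 8.67 ± 1.99 CPM in lad and 6.46 ± 0.585 CPM in J10. LOC_Os11g06180 had 1.67 ± 0.395 CPM in lad and 2.97 ± 0.649 CPM in J10, and LOC_Os12g06540 had 1.21 ± 0.432 CPM in lad and 2.11 ± 0.592 CPM in J10. These 3 did not pass.

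Among members given here without a role, the most abundant that did not pass were LOC_Os01g62460, LOC_Os10g40390, LOC_Os03g09280 and LOC_Os07g40020. LOC_Os01g62460 had 85.7, 128 and 77.4 CPM in lad and 87.7, 67.2 and 72.8 CPM in J10, so lad replicate 2 alone stood out and the rest overlapped. LOC_Os10g40390 had 70.4 ± 5.27 CPM in lad and 77.3 ± 4.41 CPM in J10, and LOC_Os07g40020 had 36.1 ± 3.11 CPM in lad and 36.3 ± 2.4 CPM in J10. LOC_Os03g09280 had 48.4 ± 3.57 CPM in lad and 41.1 ± 2.4 CPM in J10. Its groups did not overlap, yet it missed the threshold (adjusted p = 0.0937, edgeR quasi-likelihood) except with library totals (0.0275). The remaining 7 tested members, LOC_Os05g42130, LOC_Os02g10360, LOC_Os02g45760, LOC_Os04g49110, LOC_Os03g48450, LOC_Os07g38030 and LOC_Os03g01330, had log2 changes of -0.39 to 0.80 and did not pass. Of these, LOC_Os05g42130 lay higher in lad without overlap (2.08 ± 0.54 CPM in lad and 1.19 ± 0.161 CPM in J10) and LOC_Os03g01330 lower (9.72 ± 0.84 CPM in lad and 12.7 ± 0.523 CPM in J10).

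Because longer messages give more reads, levels were compared between genes as CPM per kb of deposited gene length. In lad the highest level per kb was that of LOC_Os01g71970 (43.7 ± 9.72 CPM per kb), followed by LOC_Os01g65900 (39.5 ± 6.16), LOC_Os12g38490 (36.6 ± 0.489) and LOC_Os10g40390 (34.3 ± 2.57). Each of these overlapped in range with the next in that order. In J10 the highest were LOC_Os10g40390 (37.7 ± 2.15 CPM per kb) and DLT (36.7 ± 2.34), which overlapped, and then LOC_Os01g71970 (27.5 ± 3.33), which lay below both. LOC_Os01g65900 ranked 2 of 38 in lad and 10 in J10, LOC_Os12g38490 ranked 3 in lad and 8 in J10, and DLT ranked 6 in lad and 2 in J10.

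**Figure D4:**
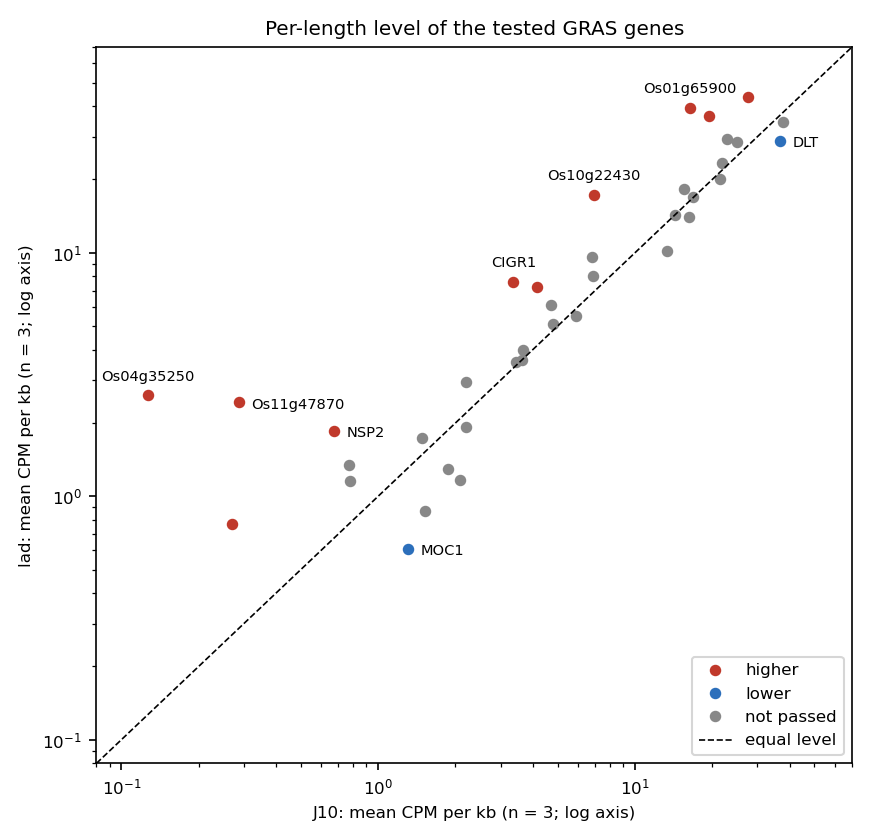
Mean level of each tested GRAS gene in CPM per kb of gene length, lad on the vertical and J10 on the horizontal axis, both log, with the line of equal level dashed. Most members lie near the line from 0.6 to 38 CPM per kb, and LOC_Os04g35250 and LOC_Os11g47870 lie far above it at the left. The lower calls MOC1 and DLT lie below it, as do some members that did not pass.

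Summed over the 59 members, GRAS messages made up 1104, 1091 and 1152 CPM in lad and 962, 895 and 918 CPM in J10. As a share of raw library totals this was 0.115, 0.112 and 0.118% in lad and 0.0972, 0.0827 and 0.0892% in J10, so the genotypes were apart on both scales. The mean sums differed by 191 CPM. Of this, LOC_Os01g65900 gave 51.4 CPM, LOC_Os12g38490 gave 50.2, LOC_Os10g22430 gave 25.2 and LOC_Os01g71970 gave 25.0 CPM, while the difference for DLT was -24.3 CPM. The 10 most abundant members held 67.9% of the summed CPM in lad and 68.5% in J10.

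Among the 21 untested members, 9 are shorter than the shortest tested one, which has 957 bases. The 14 without a count have deposited lengths of 444 to 1749 bases with a median of 886, the 7 with a few counts have 414 to 2334 bases, and the 38 tested ones have a median of 2264 bases. Besides SLRL2 they are LOC_Os01g67670, LOC_Os02g21685, LOC_Os04g37440, LOC_Os04g41630, LOC_Os05g31380, LOC_Os05g31420, LOC_Os05g40710, LOC_Os06g10900, LOC_Os06g41720, LOC_Os07g16330, LOC_Os11g04590, LOC_Os11g11600 and LOC_Os11g31390. A count of 0 over the 3 libraries of a genotype allows up to 0.0549 CPM in lad and 0.0526 CPM in J10 on the TMM scale, which is 3 counts and covers counting error only. Among the 7 with a few counts, LOC_Os01g67650 had 2, 1 and 15 counts in lad and 0 in J10. With J10 set to 3 counts over the group and the lad counts taken as exact, lad was 6.27-fold higher. This is no firm lower limit, since 15 of its 18 lad counts came from replicate 3. Without an expression filter it passed (adjusted p = 0.031, edgeR quasi-likelihood), and the other 6 did not. LOC_Os12g04200 had 8, 7 and 18 counts in lad and 3, 3 and 3 in J10, and LOC_Os03g40080 had 12, 6 and 0 counts in lad and 8, 18 and 8 in J10. LOC_Os12g04380, LOC_Os11g04400 and LOC_Os03g37900 had at most 5 counts in any library.

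Partners of these proteins were read in the main fit only. Whether their calls hold under other scalings, or with a library left out, was not tested. Of 4 genes of brassinosteroid signalling 3 fell and 0 rose, where 20.3% of all tested genes were called lower. All 4 had a mean above 20 CPM, and of all tested genes from that level up 29.1% were called lower. SMOS1 (LOC_Os05g32270), an AP2-type factor that binds DLT, fell to 40.2 ± 6.08 CPM in lad, against 56 ± 2.33 CPM in J10 (log2 change -0.48 ± 0.12, adjusted p = 0.00932, edgeR quasi-likelihood). GSK2 (LOC_Os05g11730), a kinase that restrains the pathway and phosphorylates DLT, fell to 64 ± 1.69 CPM in lad, against 90.6 ± 6.7 CPM in J10 (log2 change -0.50 ± 0.10, adjusted p = 0.0022, edgeR quasi-likelihood). BZR1 (LOC_Os07g39220), the transcription factor of the pathway, fell to 70.2 ± 1.86 CPM in lad, against 88.6 ± 2.14 CPM in J10 (log2 change -0.34 ± 0.09, adjusted p = 0.0134, edgeR quasi-likelihood). The receptor gene D61 (LOC_Os01g52050), at 62.4 ± 6.48 CPM in lad and 74.6 ± 2.79 CPM in J10, did not pass.

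The 2 loci listed for gibberellin perception moved in opposite directions. Whether each locus holds the gene of its name was not tested. The receptor gene GID1 (LOC_Os05g33730) rose to 261 ± 1.18 CPM in lad, against 136 ± 12.6 CPM in J10 (log2 change 0.95 ± 0.11, adjusted p = 5.49e-05, edgeR quasi-likelihood). LOC_Os02g36974 was taken for GID2, the F-box protein that marks SLR1 for breakdown. It fell to 378 ± 31.8 CPM in lad, against 578 ± 17.9 CPM in J10 (adjusted p = 0.00151, same test). Of the strigolactone synthesis genes, the locus taken for D27 (LOC_Os11g37650) is absent from the deposited table. Of the other 2, 0 passed, beside 45.2% of all tested genes. D17 (LOC_Os04g46470) had 2.62 ± 1.01 CPM in lad and 1.19 ± 0.626 CPM in J10, and D10 (LOC_Os01g54270) had 0.473 ± 0.201 CPM in lad and 1.14 ± 0.0522 CPM in J10. The genotypes did not overlap in either gene, with lad above for D17 and below for D10 (adjusted p of 0.0744 and 0.0512, edgeR quasi-likelihood). The D17 locus shares positions with LOC_Os04g46480 on the opposite strand, and the strand setting was not given. Its low counts could therefore hold reads of that gene, which was not tested.

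Of the 5 GRAS genes left out of the set, SHR1 fell to 48.2 ± 6.5 CPM in lad, against 69.1 ± 4.8 CPM in J10, and SHR2 fell to 29.2 ± 1.91 CPM in lad, against 44.7 ± 6.02 CPM in J10 (adjusted p of 0.00538 and 0.00251, edgeR quasi-likelihood). SCR1, SCR2 and SLR1 did not pass, and SLR1, the most abundant of the 5, had 150 ± 15.2 CPM in lad and 151 ± 5.07 CPM in J10. SCR1 and SCR2 lie within the first 3.5 Mb of chromosomes 11 and 12. The limit given above for counts of near-identical copies holds for them too. These 5 genes, like the partners, were read in the main fit only.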

How the data were processed

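RNA from root tips of 3 lad and 3 J10 samples was sequenced, and the authors deposited a single table of counts by gene. It also holds locus coordinates, gene length (bases, a deposited value of another kind), a gene description and a transcription factor family. The counts are whole numbers with a different total per library and were taken as not normalized. Bowtie 0.12.2 and the mouse builds mm8 and mm9 stand in the submitters' processing notes, and mouse builds cannot be the source of rice loci; the counter, strand setting, annotation and rice build were not given in the sources used here. Of the members, 0 overlap another gene of the table. The table's identifiers match 0 entries of the RefSeq gene table (ASM3414082v1), so no sequence is printed. Of the names given to listed loci, 20 occur in RefSeq, all 20 on the same chromosome, but only 3 of these are members (CIGR1, CIGR2 and SLRL1); the names of the other members were not checked in this way.

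Counts were fitted with edgeR 4.0.16 in R 4.3.3: edgeR's expression filter, TMM scaling (factors 0.924 to 1.04), a quasi-likelihood fit of genotype alone, on 4 residual degrees of freedom, two-sided tests, and Benjamini-Hochberg adjustment over all 22624 genes, with a threshold of 0.05. The code was tested on simulated counts. SE is the absolute log2 fold change over the square root of F, and intervals use the moderated degrees of freedom. Levels are TMM-scaled CPM. Intervals and floors at 0 counts cover counting error or spread between libraries only, since reads are not independent molecules. Replicates were not duplicates: within genotypes, chi-square was at least 9.03 for each degree of freedom. The labels do not say whether equal replicate numbers pair the samples, so the number was a block only in an alternative.

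The members and lists were chosen with earlier results of these data known. Named were all members listed with a role. Among the rest, up to 12 higher and 12 lower calls by log2 change and the 4 most abundant that did not pass were named. Others were chosen after their values were seen. Alternatives were DESeq2 1.42.0, other scalings and filters, leaving out each library, and the replicate number as a block.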

Additional observations from a re-analysis of the deposited data

How the results depend on the processing

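Of the 12 called members, 9 kept their call and all 12 their direction under all 13 alternatives; DLT, MOC1 and LOC_Os11g04570 lost theirs in the fits named with them above. Of the 26 members not called, 5 passed under at least 1 alternative: LOC_Os02g45760 without lad replicate 2 (adjusted p = 0.0458), LOC_Os03g01330 and LOC_Os11g06180 with upper-quartile factors, LOC_Os03g09280 with library totals, and LOC_Os11g47920 without J10 replicate 1 (0.0416) and with the replicate block (0.0335), all by edgeR quasi-likelihood. For 8 members, 0 of them called and none with a log2 change over 0.23 in size, the sign changed among alternatives. The count of higher members was 9 to 11 under every alternative. The count of lower members was 2, but 4 with upper-quartile factors and 0 with library totals, and 0 to 2 when 1 library was left out; the cause was not tested. The scalings moved the median log2 change of all tested genes by -0.06 (upper quartile) to 0.09 (library totals), and the share of higher calls among all calls was 55.2% with TMM, 49.3% with upper-quartile factors and 63.1% with library totals. With the replicate block 11 members were higher and 2 lower, and 10648 genes were called in all, against 10229 without it. Deviations of equally numbered samples from their genotype means correlated at 0.057, 0.129 and -0.032, and those of unequally numbered samples at -0.147 to 0.101. So few values cannot settle whether equal numbers pair the samples, and the labels do not say. Counts in all tested genes ranged from 7804 to 11191 when 1 library was left out. Depth limits the low members: the 12 with a mean of 1 to 5 CPM had an SE of 0.31 to 0.67 on the log2 scale.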
